A study of Mus musculus with 6 samples.

Results

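The genes examined here encode the Id proteins (*Id1*, *Id2*, *Id3* and *Id4*), the transcription factor *Atoh8* and the E proteins (*Tcf3*, *Tcf4* and *Tcf12*), in mouse alveolar type II (AT2) cells with and without an active BMP receptor. They are 8 genes of the 24421 in the count table, found by their symbols. *Id1*, *Id3* and *Atoh8* were chosen by their measured values, since they were known to be higher in the comparison made here, and the other members were added by gene family. The changes of *Id1*, *Id3* and *Atoh8* are therefore given as a description, with no test. All 8 genes passed the expression filter, which 16723 genes passed.

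AT2 cells carrying a tdTomato lineage label were sorted from mouse lungs, and their poly(A) RNA was sequenced in 3 libraries per genotype. AT2CTRL mice had the genotype Sftpc-CreERT2/+ with R26-tdTomato/+. AT2CAB mice had Sftpc-CreERT2/+ with R26-tdTomato/R26-caBmpr1a, where caBmpr1a encodes BMPR1a, a type I receptor for BMPs, in a form that signals without ligand. The mice of AT2CTRL replicates 1, 2 and 3 were 12, 16 and 12 weeks old, and those of AT2CAB replicates 1, 2 and 3 were 16, 12 and 12 weeks old. Both groups thus carried the same Cre driver and reporter and differed in the receptor allele. Cre acted only where the *Sftpc* promoter was active and after tamoxifen, whose dose and timing for these samples are not given in the sources used here. The reporter and receptor alleles recombine independently of each other, so a labelled cell need not express the active receptor. The labels number the replicates without saying whether each is a single animal, so p-values measure the spread between these samples.

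The libraries held 22909120, 24490233 and 27915100 counts in AT2CTRL replicates 1, 2 and 3, and 21554249, 24716504 and 28440227 counts in AT2CAB replicates 1, 2 and 3. Levels are given as CPM, counts per 1000000 counts of the library after scaling by edgeR's TMM factors. At these depths 3 counts correspond to between 0.105 and 0.139 CPM of the unscaled totals, which covers counting error only. Wherever levels of different genes are compared, CPM was divided by the gene length in kilobases (CPM per kb).

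BMP ligands act through type I and type II receptors, which phosphorylate SMAD transducers, and the Id genes are among the best known direct targets of these SMADs. Id proteins contain a helix-loop-helix region but lack the basic region that contacts DNA, so they bind E proteins and hold them off their E-box sites. E proteins are broadly expressed and bind DNA as dimers with themselves or with tissue-restricted basic helix-loop-helix (bHLH) factors, the wider family to which ATOH8 belongs.

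The receptor gene itself was read first. *Bmpr1a* was at 105.4, 129.9 and 124.7 CPM in AT2CTRL replicates 1, 2 and 3 and at 131.1, 128.4 and 96.8 CPM in AT2CAB replicates 1, 2 and 3. The groups overlapped, and reads of the allele cannot be told apart from those of the endogenous gene in this table, so its level does not check the labels. A pair of libraries stood apart. AT2CTRL replicate 1 and AT2CAB replicate 3 held reads of *Ddx3y*, *Uty*, *Kdm5d* and *Eif2s3y*, genes of the Y chromosome, which summed to 176.4 and 146.3 CPM. The other 4 libraries had 0 counts on them. Both libraries took the lowest scores (-36.7 and -73.5) on a first principal component holding 49.3% of the variance. For the genes described in most detail, values from the other 4 libraries are given as well.

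The AT2 label was checked on 10 markers, all of which passed the expression filter. Their summed level was 132600, 121400 and 117500 CPM in AT2CTRL replicates 1, 2 and 3 and 112200, 103600 and 100300 CPM in AT2CAB replicates 1, 2 and 3, with *Sftpc*, the gene of surfactant protein C, the most abundant per kb. Markers of AT2 cells were thus at a high level in each library, and after TMM scaling the sums of AT2CAB lay below those of AT2CTRL. On the unscaled totals the groups overlapped, with the sum of AT2CAB replicate 1 above that of AT2CTRL replicate 3. The median log2 fold change of the list was -0.30, against -0.0096 over all genes tested, and 5 of its 10 genes had all AT2CAB values below all AT2CTRL values, as 10.1% of all genes tested did. edgeR called 0 of the 10, with 4 lower and 0 higher at an unadjusted p under 0.05, and DESeq2 called 0. *Sftpd*, named after its values were seen, had an adjusted p of 0.00938 in DESeq2 (log2 fold change -0.70), short of a call by its fold, against 0.279 in edgeR and up to 0.318 over the alternatives run for it. Over all genes tested, 4.62% were higher and 5.05% lower at an unadjusted p under 0.05 in edgeR, and 48.8% had a log2 fold change above 0, which are the shares beside which the counts of every list stand.

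*Id1* lies at chr2:152736251-152737410 (mm10, forward strand). It was at 18.5, 20.8 and 19.2 CPM in AT2CTRL replicates 1, 2 and 3 and at 124.4, 176.6 and 411.4 CPM in AT2CAB replicates 1, 2 and 3. Every AT2CAB library lay above every AT2CTRL library, and the lowest AT2CAB value was 5.98 times the highest control value. The controls lay within 1.12-fold of each other, whereas the AT2CAB libraries spread over 3.31-fold with replicate 3 far above the others. The means were 19.5 ± 1.17 and 237.5 ± 152.9 CPM (SD, n = 3). On the log2 scale the difference was 3.61 (standard error, SE, 0.42) and 2.95 in the 4 libraries without Y-linked reads.

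*Id3* lies at chr4:136143822-136145392 (mm10, forward strand) and encodes a close relative of ID1. Its level was 13.8, 15.6 and 11.2 CPM in AT2CTRL replicates 1, 2 and 3 and 178.8, 247.1 and 545.2 CPM in AT2CAB replicates 1, 2 and 3. The order of the AT2CAB libraries was that of *Id1*, with replicate 1 lowest and replicate 3 highest, and the groups did not overlap. The lowest AT2CAB value was 11.5 times the highest control value. The log2 difference was 4.58 (SE 0.43), position 6 among the 16723 genes tested, and 4.03 in the 4 libraries without Y-linked reads.

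*Atoh8*, a bHLH factor gene at chr6:72206177-72235577 (mm10, reverse strand), was at 5.16, 7.76 and 5.18 CPM in AT2CTRL replicates 1, 2 and 3. In AT2CAB replicates 1, 2 and 3 it was at 63.1, 108.0 and 138.1 CPM. Here the AT2CAB libraries spread less, over 2.19-fold, and replicate 3 was again the highest. Its log2 fold change was 4.10 (SE 0.32), position 9 among the genes tested, and 3.77 in the 4 libraries without Y-linked reads. *Id1* took position 13.

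The order shared by these genes within AT2CAB was not theirs alone. Among all genes tested, replicate 1 was the lowest AT2CAB library for 27.4% and the highest for 32.0%, and replicate 3 was the lowest for 41.3% and the highest for 41.8%, so that replicate 3 was often at an extreme in both directions. Among the 38 genes called higher in AT2CAB (adjusted p under 0.05 in edgeR, with a log2 fold change above 1), replicate 1 was the lowest for 37 and replicate 3 the highest for 26. Replicate 1 was the 16-week-old AT2CAB sample. With age as a factor in the fit, the log2 fold changes were 3.51 for *Id1*, 4.51 for *Id3* and 4.05 for *Atoh8*, and the part of age in the order was not tested.

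**Figure D1:**
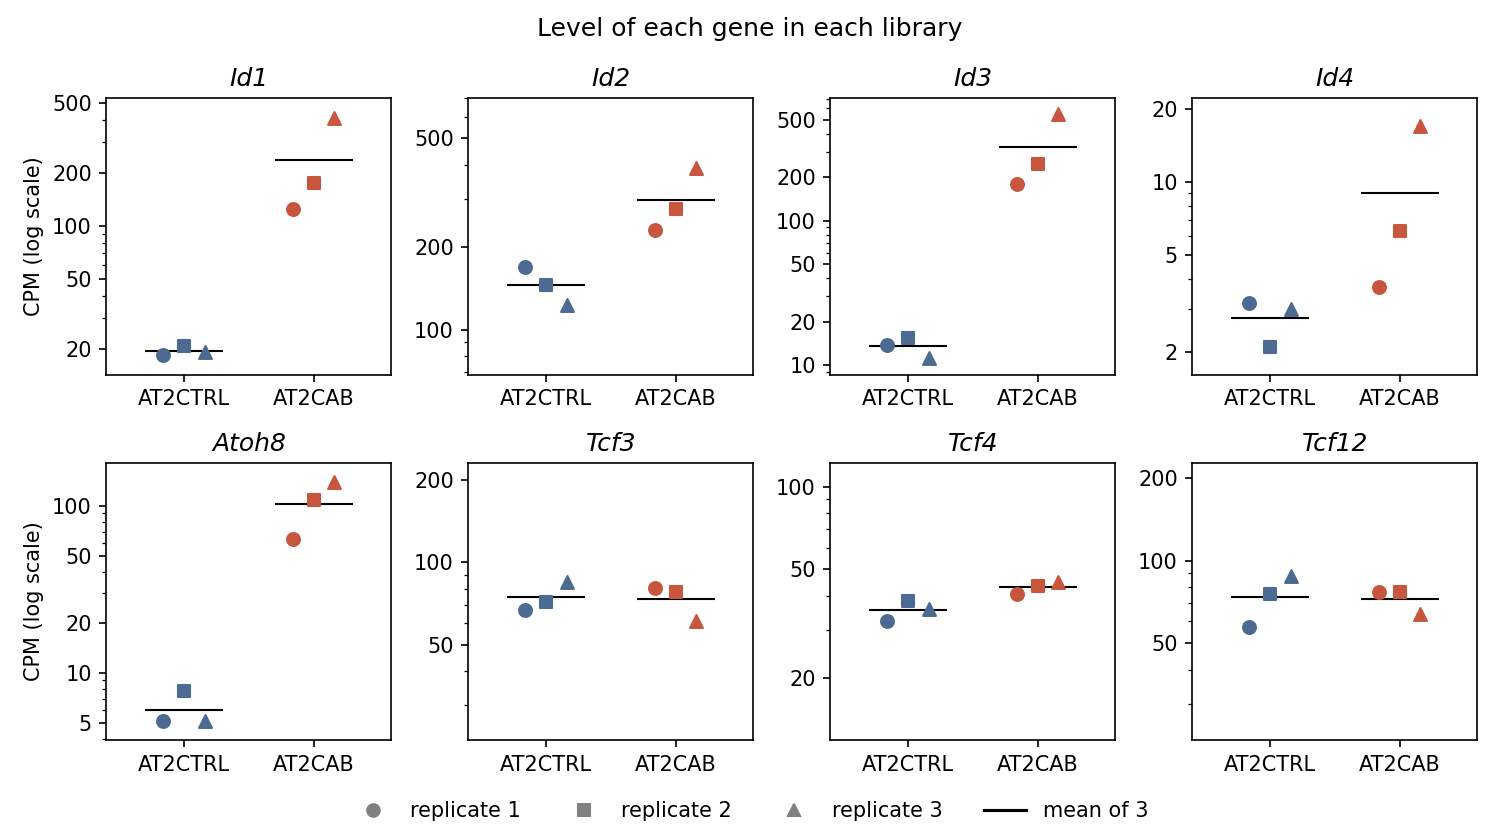
Level of each gene in each library, in CPM on a log axis, with AT2CTRL in blue and AT2CAB in red, symbols for replicates and a black line for the mean of 3. *Id1*, *Id3* and *Atoh8* lie far above the controls in all AT2CAB libraries with replicate 3 highest, while *Tcf3* and *Tcf12* overlap between the groups.

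*Id2* was the most abundant Id gene of the control cells. It lies at chr12:25093799-25096092 (mm10, reverse strand) and was at 169.0, 146.3 and 123.7 CPM in AT2CTRL replicates 1, 2 and 3 and at 230.7, 276.1 and 389.5 CPM in AT2CAB replicates 1, 2 and 3. The groups did not overlap, and the lowest AT2CAB library was 1.37 times the highest control. *Id2* differed by 1.03 on the log2 scale (SE 0.21, 95% interval from 0.55 to 1.51). The quasi-likelihood test of edgeR, with Benjamini-Hochberg adjustment over all genes tested, gave 0.138 as its adjusted p, which did not pass 0.05. Its adjusted p was under 0.05 in the 4 libraries without Y-linked reads (log2 fold change 0.94, short of the 2-fold that a call needs, edgeR adjusted p = 0.0263), with Y-linked reads as a factor (1.01, edgeR adjusted p = 0.00612) and in DESeq2 (1.04, adjusted p = 0.000194). Over all 18 alternatives the adjusted p of *Id2* ran from 0.000194 to 0.474 and its log2 fold change from 0.83 to 1.21. By qPCR the study itself reported *Id2*, with *Id1* and *Smad6*, as significantly higher in AT2CAB than in AT2CTRL cells. The direction of *Id2* was therefore known beforehand.

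*Id4* lies at chr13:48261427-48264036 (mm10, forward strand) and was the scarcest Id gene. It had 71, 49 and 79 counts in AT2CTRL replicates 1, 2 and 3 and 81, 163 and 525 counts in AT2CAB replicates 1, 2 and 3, or from 2.10 to 3.18 CPM in controls and 3.71, 6.32 and 17.1 CPM in the AT2CAB libraries. The groups did not overlap, but AT2CAB replicate 1 was only 1.17 times the highest control. The log2 fold change was 1.71 (SE 0.52, edgeR quasi-likelihood adjusted p = 0.355) and it was 0.90 without AT2CAB replicate 3 (edgeR adjusted p = 0.602) and 1.01 in the 4 libraries without Y-linked reads (edgeR adjusted p = 0.299). DESeq2 gave 1.72 with an adjusted p of 0.0315, the lowest of the 18 alternatives, whose highest was 0.76. Exons of *A330033J07Rik* on the opposite strand overlap those of *Id4* in the GENCODE M21 annotation, and both genes are in the count table. The counting ignored strand and assigned a read lying on both genes to neither, so reads from the overlap may be missing from the counts of *Id4*. The overlap was read from GENCODE M21 and not from the annotation used for counting.

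*Tcf3*, the E2A gene (chr10:80409165-80433653, mm10, reverse strand), was at 66.8, 71.8 and 84.8 CPM in AT2CTRL replicates 1, 2 and 3 and at 80.8, 77.8 and 60.8 CPM in AT2CAB replicates 1, 2 and 3. *Tcf12*, the HEB gene (chr9:71844252-72111819, mm10, reverse strand), was at 57.0, 75.7 and 87.9 CPM in the AT2CTRL libraries and at 77.0, 76.5 and 63.8 CPM in the AT2CAB libraries, in the same order. For both E proteins the groups overlapped and AT2CAB replicate 3, highest for the Id genes, was the lowest of its group. The log2 fold change was -0.027 for *Tcf3* (SE 0.15, 95% interval from -0.37 to 0.31) and -0.023 for *Tcf12* (SE 0.17, interval from -0.41 to 0.36), and edgeR's quasi-likelihood test gave 0.964 and 0.974 as adjusted p. These signs carried no direction, since both turned positive with upper-quartile scaling (0.043 and 0.051) and with library size only (0.100 and 0.11), the latter moving the median of all genes to 0.12. The intervals include changes of that size in both directions.

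*Tcf4*, the gene of the E protein TCF4, was at 32.3, 38.2 and 35.9 CPM in AT2CTRL replicates 1, 2 and 3 and at 40.7, 43.6 and 45.0 CPM in AT2CAB replicates 1, 2 and 3. The groups did not overlap, by a margin of 1.06-fold between the nearest libraries. Its log2 fold change of 0.28 (SE 0.11, 95% interval from 0.019 to 0.54) did not pass edgeR's quasi-likelihood test (adjusted p = 0.485). It did not pass in any of the 18 alternatives, where the log2 fold change ran from 0.21 to 0.41 and the adjusted p from 0.187 to 0.858.

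Counted together, 3 of the 8 members were called higher in AT2CAB, namely *Id1*, *Id3* and *Atoh8*, where the same call took in 0.227% of all genes tested. None of the 8 was called lower, a call that took in 0.0120% of the genes. For 6 of the 8, all but *Tcf3* and *Tcf12*, the AT2CAB values lay above all AT2CTRL values (7.0% of all genes), and for 0 they lay below (10.1%). Nothing is read from these counts, because the members called were chosen by this contrast. An exact permutation test on a single gene cannot give a p under 0.1 with 3 libraries per group.

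**Figure D2:**
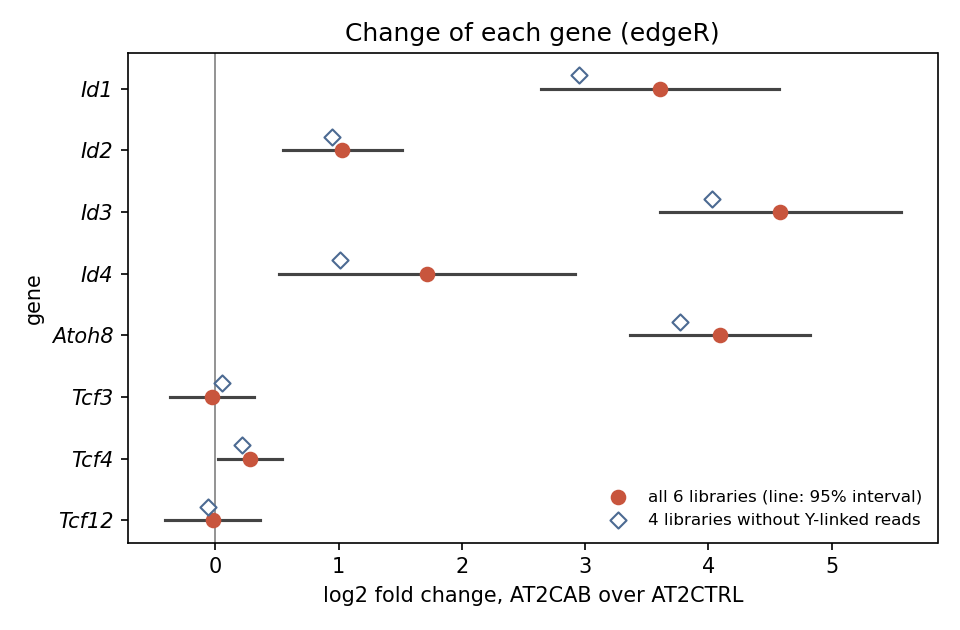
Log2 fold change of AT2CAB over AT2CTRL for each gene from edgeR, as red points with 95% intervals from all 6 libraries, and as open diamonds from the 4 libraries without Y-linked reads. *Id1*, *Id3* and *Atoh8* lie between 3.61 and 4.58 in all libraries and lower in the 4, while *Tcf3* and *Tcf12* lie at 0 within their intervals, with signs that change with the scaling.

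The calls of *Id1* and *Id3* were lost in some fits without 1 library, at folds close to those from all 6. Without AT2CTRL replicate 1, 2 or 3 the adjusted p of *Id1* was 0.0955, 0.13 or 0.11 in edgeR, and without AT2CAB replicate 2 it was 0.0544, with log2 fold changes of 3.56, 3.65, 3.59 and 3.79 in these fits. *Id3* lost the call without each AT2CTRL replicate in turn (adjusted p = 0.0536, 0.0602 and 0.0595 in edgeR), with log2 fold changes of 4.59, 4.69 and 4.46. The calls over all genes dropped in the same fits, from 38 higher to 12, 6 and 7 without AT2CTRL replicate 1, 2 and 3 and to 8 without AT2CAB replicate 2. *Atoh8* kept its call in all 18 alternatives. These adjusted p-values describe how the call depended on the libraries and are no test of the members.

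Per kilobase, the order of levels changed between the groups. In AT2CTRL cells *Id2* led with 115.0 ± 17.8 CPM per kb (SD, n = 3), clear of *Tcf3* (from 18.8 to 23.9) and *Id1* (20.9 ± 1.25), whose ranges overlapped. *Tcf12* (14.5 ± 3.08) and *Id3* (14.2 ± 2.30) overlapped as well, and *Tcf4* (4.62 ± 0.38), *Atoh8* (2.56 ± 0.64) and *Id4* (1.67 ± 0.35) followed without overlap. *Id2* exceeded 97.1% of the genes tested in this measure, *Id1* 79.9%, *Id3* 71.6% and *Atoh8* 39.8%.

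In AT2CAB cells *Id3* (339.6 ± 204.4 CPM per kb), *Id1* (254.2 ± 163.7) and *Id2* (234.9 ± 64.3) overlapped with one another at the top. AT2CAB replicate 3 decided much of the means of *Id3* (187.6, 259.3 and 572.1 in replicates 1, 2 and 3) and *Id1* (133.2, 189.1 and 440.5). *Id1* stood above *Id2* (181.4, 217.1 and 306.2) in replicate 3 only. *Atoh8* (43.8 ± 16.0) now stood above *Tcf3* (20.6 ± 3.05), *Tcf12* (14.3 ± 1.48) and *Tcf4* (5.61 ± 0.29), with no overlap between neighbours in this order. *Id4* (5.45 ± 4.27) overlapped with *Tcf4* through AT2CAB replicate 3 (10.3), and lay below it in replicates 1 and 2 (2.24 and 3.81). *Id3*, *Id1* and *Id2* exceeded 99.2%, 98.9% and 98.8% of the genes tested, and *Atoh8* 91.6%.

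The makeup of the Id family differed in the same way. *Id2* made up 78.6%, 74.3% and 74.0% of the summed Id level per kb in AT2CTRL replicates 1, 2 and 3, and 36.0%, 32.4% and 23.0% in AT2CAB replicates 1, 2 and 3. The share of *Id3* was from 8.54% to 10.5% in controls and from 37.2% to 43.0% in AT2CAB, and that of *Id1* from 11.7% to 15.6% and from 26.4% to 33.1%. The share of *Id4* was from 0.817% to 1.38% in controls and from 0.443% to 0.775% in AT2CAB. The groups did not overlap for any of the 4 genes, with the shares of *Id2* and *Id4* lower in AT2CAB and those of *Id1* and *Id3* higher. Since *Id1* and *Id3* were chosen for being higher and the shares add up to a whole, this follows from the choice, and the levels of *Id2* and *Id4* themselves were not lower in AT2CAB. These shares are ratios within a library and do not depend on the scaling between libraries.

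*Id3* stood below *Id1* in every control library and above it in every AT2CAB library. The ratio of *Id3* to *Id1* per kb was 0.73, 0.73 and 0.57 in AT2CTRL replicates 1, 2 and 3 and 1.41, 1.37 and 1.3 in AT2CAB replicates 1, 2 and 3. AT2CAB replicate 3, which had the highest level of both genes, had the lowest ratio of its group.

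The makeup of the E proteins was close in the groups. *Tcf3* made up from 50.4% to 54.9% of their summed level per kb in AT2CTRL and from 48.1% to 52.6% in AT2CAB, and *Tcf12* from 32.8% to 37.8% and from 35.1% to 35.4%. The summed E-protein level was 40.2 ± 5.83 CPM per kb in AT2CTRL and 40.5 ± 4.29 in AT2CAB (SD, n = 3). The share of *Tcf4* was from 10.2% to 12.4% in controls and reached 16.5% in AT2CAB replicate 3.

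Set against each other, the Id genes summed to 4.93, 3.85 and 2.86 times the E-protein genes in AT2CTRL replicates 1, 2 and 3 and to 11.7, 15.7 and 37.3 times in AT2CAB replicates 1, 2 and 3. The groups did not overlap, and the mean ratio was 3.88 ± 1.04 in AT2CTRL and 21.6 ± 13.8 in AT2CAB (SD, n = 3). *Id1* and *Id3*, chosen for being higher, made up most of the Id sum in AT2CAB. The higher ratio thus follows largely from the choice and is no separate result. AT2CAB replicate 3 decided much of that mean, which was 13.7 without it, and the mean of AT2CTRL was 3.36 without replicate 1. Without the division by length, the means were 1.02 and 4.77. The lengths join all exon entries of a gene, 152, 40 and 83 for *Tcf3*, *Tcf4* and *Tcf12* against 2 for *Id1* and 3 for *Id2*, *Id3* and *Id4*. E-protein levels per kb may thus be understated, here and in the order of levels above. The ratio compares RNA levels, and protein was not measured in these libraries.

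**Figure D3:**
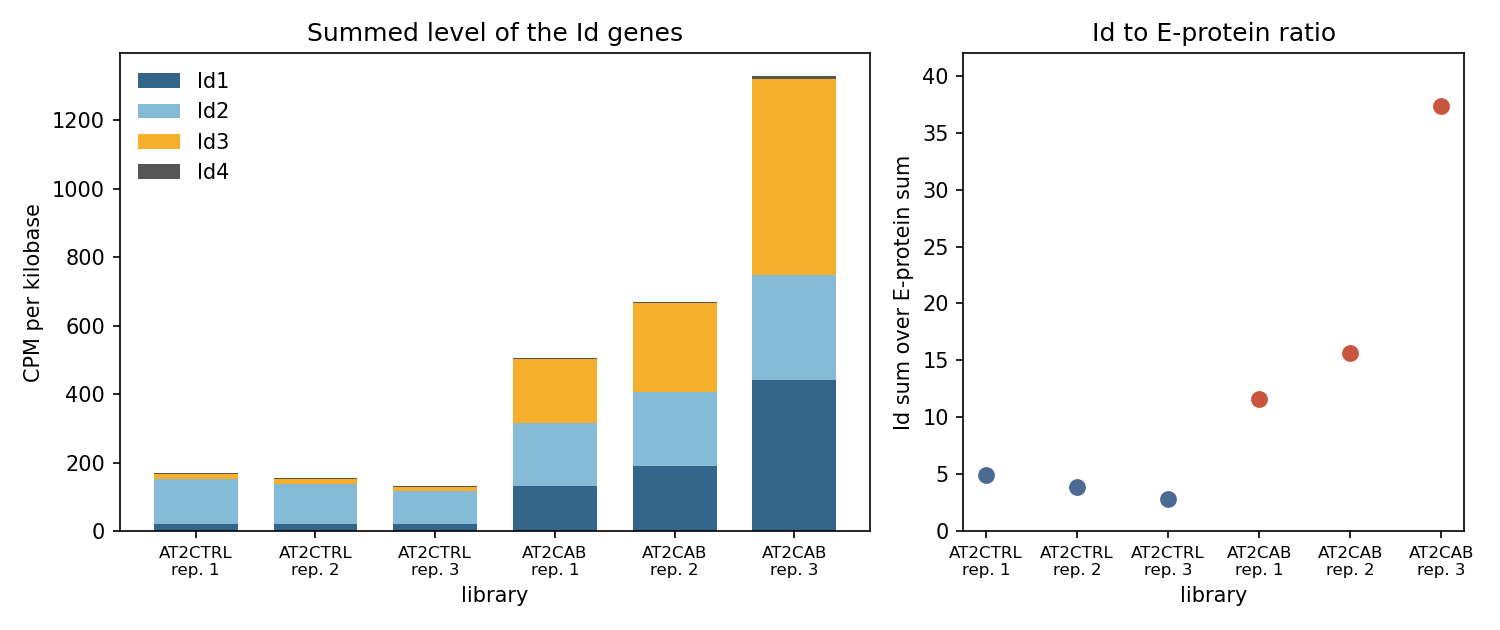
Left, summed level of *Id1* to *Id4* in each library in CPM per kilobase, stacked by gene; right, the ratio of that sum to the sum of *Tcf3*, *Tcf4* and *Tcf12*. *Id2* fills most of each control bar, while *Id1*, *Id2* and *Id3* share the AT2CAB bars, and the ratio is from 2.86 to 4.93 in AT2CTRL and from 11.7 to 37.3 in AT2CAB. *Id1* and *Id3* were chosen for being higher in AT2CAB, so the higher sum and ratio follow largely from the choice.

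Promoter sequences are shown for *Id3* and *Atoh8*, both chosen for being higher in AT2CAB, and for *Id2*, a family member with a smaller change. The RefSeq promoter table (GRCm38.p6, from 250 bases before to 50 bases after a start site) matched 6 of the 8 members, and *Id1* and *Tcf4* have no entry in it. The intervals are chr4:136143572-136143871 (forward strand) for *Id3*, chr6:72235528-72235827 (reverse strand) for *Atoh8* and chr12:25096043-25096342 (reverse strand) for *Id2*, each written 5′ to 3′ along its gene. Capitals mark GGCGCC, a GC-rich SMAD motif, CAGAC or its reverse complement GTCTG, the SMAD box, and CANNTG, the E-box bound by bHLH dimers.
Id3 promoter: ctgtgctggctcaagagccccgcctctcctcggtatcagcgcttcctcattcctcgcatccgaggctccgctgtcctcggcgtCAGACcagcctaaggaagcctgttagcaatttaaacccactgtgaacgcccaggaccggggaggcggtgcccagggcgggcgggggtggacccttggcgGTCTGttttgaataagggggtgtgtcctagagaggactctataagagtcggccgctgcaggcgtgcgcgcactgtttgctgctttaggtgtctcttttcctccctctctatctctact
Atoh8 promoter: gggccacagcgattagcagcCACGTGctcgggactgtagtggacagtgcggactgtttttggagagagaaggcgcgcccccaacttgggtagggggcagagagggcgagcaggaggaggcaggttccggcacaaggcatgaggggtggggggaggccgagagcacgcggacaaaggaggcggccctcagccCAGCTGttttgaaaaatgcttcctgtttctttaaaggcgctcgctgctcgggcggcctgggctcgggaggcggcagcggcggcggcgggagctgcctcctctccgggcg
Id2 promoter: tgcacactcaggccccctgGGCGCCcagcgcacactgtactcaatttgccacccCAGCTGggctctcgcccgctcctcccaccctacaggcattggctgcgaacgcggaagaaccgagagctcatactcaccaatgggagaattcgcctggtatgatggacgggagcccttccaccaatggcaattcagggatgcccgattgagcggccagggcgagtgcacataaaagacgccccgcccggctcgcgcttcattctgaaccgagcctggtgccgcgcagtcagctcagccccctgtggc

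Positions are given relative to the start site. The *Id3* promoter held CAGAC at -167 and GTCTG at -68, and neither GGCGCC nor an E-box. The *Atoh8* promoter held no SMAD motif of either kind and a pair of E-boxes, CACGTG at -230 and CAGCTG at -59. The *Id2* promoter held GGCGCC at -231 and the E-box CAGCTG at -196, and that of *Id4* held GGCGCC at -148. Genes whose levels overlapped between the groups held matches too, with the E-box CACTTG at -54 in the *Tcf3* promoter and, over the *Tcf12* promoters of the table, CAGAC at -50 and E-boxes at -240, -149, -5 and 19. No matches overlapped in these promoters.

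Such matches are common. Of 32851 promoters of this length, 11.9% held GGCGCC, 49.6% held CAGAC or GTCTG and 72.3% held CANNTG. The BMP response element, searched on both strands as GGCGCC, a spacer of 5 bases, then GTCT, was in 24 of them (0.0731%) and in none of the members' promoters in the table. The promoters of *Id3*, *Atoh8* and *Id2* were 60.0%, 66.7% and 63.3% G or C, above the median of 52.7% over the table. A match is not a site of binding, and a window of 300 bases says nothing about sites elsewhere.

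The genes lying next to the members gave a further view. *Id3* lies between *Rpl11*, a ribosomal protein gene 90.5 kb away, and *E2f2*, 26.9 kb away, whose log2 fold changes were -0.13 and -0.22 (edgeR adjusted p = 0.794 and 0.541), with all AT2CAB values of *E2f2* below all controls. *Atoh8* lies between *St3gal5*, 51.6 kb away, and *Sftpb*, the surfactant protein B gene 69.0 kb away, with log2 fold changes of 0.17 and 0.013 (edgeR adjusted p = 0.647 and 0.988), with all AT2CAB values of *St3gal5* above all controls. The changes of *Id3* and *Atoh8*, above 4 on the log2 scale, thus had no counterpart of that size in the nearest tested gene on either side. Next to *Id1*, *H13* was at -0.14 and *Cox4i2*, 16.8 kb away, at 1.05, with AT2CAB values above all controls (edgeR adjusted p = 0.733 and 0.186).

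The profiles most like those of the members were sought over the 6 libraries by the root mean square difference of log2 CPM, each centred on its control mean. For *Id1* the nearest gene was *Ihh* (difference 0.142), which encodes the ligand Indian hedgehog and was at 1.61, 2.32 and 1.98 CPM in AT2CTRL replicates 1, 2 and 3 and at 12.6, 21.7 and 42.3 CPM in AT2CAB replicates 1, 2 and 3. The search picks genes with the rise, order and spread of *Id1*, so these likenesses of *Ihh* follow from it. *Aebp1* (0.366) and *Adprhl1* (0.38) were also near, though *Adprhl1* was at 0.42 CPM or less in each control. At that level the 2 counts added before taking logarithms bear on its distance. *Dcpp3* and *Dusp15* came out near as well, but with 0 counts of *Dcpp3* and at most 2 of *Dusp15* in each control their profiles depend on the 2 counts added before taking logarithms, so no distance or rank is given for them. *Dcpp3* was at least 8.62-fold higher in AT2CAB, taking 3 counts per control library as the floor. That bound uses the AT2CAB mean of 0.46, 0.97 and 1.82 CPM in replicates 1, 2 and 3, and is lower without replicate 3.

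*Atoh8* and *Id3*, both chosen for being higher in this contrast, were among each other's nearest genes, with a difference of 0.38. For *Id3*, *Susd2* was nearer still (0.313), with 5.20, 5.53 and 4.04 CPM in AT2CTRL replicates 1, 2 and 3 and 78.3, 149.1 and 185.1 CPM in AT2CAB replicates 1, 2 and 3, and *Tmem91* and *Ihh* were also near. Near *Atoh8* were, besides *Id3*, *Ihh* (0.452), *Susd2* (0.501) and *Id1* (0.527). *Id2* had closer neighbours, *Galnt18* (0.0878), *Scx* (0.113), *Tmem45a* (0.117), *Sh3d21* (0.136) and *Piezo2* (0.143). *Scx* encodes the bHLH factor scleraxis, a partner of E proteins, and was at 21.1, 20.5 and 16.3 CPM in the AT2CTRL libraries and 29.2, 40.7 and 45.3 CPM in the AT2CAB libraries. Its log2 fold change of 0.99, like the 1.03 of *Id2*, did not pass in edgeR (adjusted p = 0.122).

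Upstream of the Id genes, the BMP receptors gave no call. All 7 receptor genes were tested, and edgeR called 0 of them, with 1 higher and 0 lower at an unadjusted p under 0.05, and DESeq2 called 0. By size of log2 fold change *Acvrl1* (0.65, edgeR adjusted p = 0.459), a receptor best known from endothelial cells, and *Bmpr1b* (-0.26, edgeR adjusted p = 0.895) came first. *Bmpr1a*, the most abundant receptor per kb in the AT2CTRL libraries and in AT2CAB replicate 1, where *Acvrl1* was higher in AT2CAB replicates 2 and 3, was at -0.015 (edgeR adjusted p = 0.983), a sign that turned with DESeq2's size factors (0.010), library size only (0.11), halved counts (0.0019) and the 4 libraries without Y-linked reads (0.061). The median of the list was -0.015, against -0.0096 over all genes tested.

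Among the SMAD transducers, *Smad9*, which encodes a receptor-activated SMAD of the BMP pathway, was the member called. It was at 3.00, 5.66 and 3.58 CPM in AT2CTRL replicates 1, 2 and 3 and at 35.7, 48.1 and 42.6 CPM in AT2CAB replicates 1, 2 and 3. Here AT2CAB replicate 2 was the highest and the AT2CAB libraries lay close together, unlike those of the Id genes. The log2 fold change was 3.37 (SE 0.25, edgeR adjusted p = 0.00289) and 3.23 in the 4 libraries without Y-linked reads. *Smad1*, *Smad5* and *Smad4* were at 0.021, -0.25 and -0.19 and did not pass.

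Of 5 feedback inhibitors, *Smad6*, an inhibitory SMAD, was called, with 44.7, 63.2 and 55.4 CPM in AT2CTRL replicates 1, 2 and 3 and 105.3, 158.6 and 130.2 CPM in AT2CAB replicates 1, 2 and 3. The groups did not overlap. Its log2 fold change was 1.27 (SE 0.19, edgeR adjusted p = 0.0431), and the call was lost with DESeq2's size factors (edgeR adjusted p = 0.0545), the highest of the alternatives run for it. *Smad7* had 1.33 without passing (edgeR adjusted p = 0.101). It was called by DESeq2, which also called *Smad6*, and by edgeR in the 4 libraries without Y-linked reads (1.21, adjusted p = 0.017), and its adjusted p reached 0.179 over the alternatives run for it. The changes of *Smad9*, *Smad6* and *Smad7* were known from earlier results of these data and are no independent support. *Smad7* was named after its values were seen.

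Beyond these, 13 further genes reported as BMP targets were listed, 9 of them tested. edgeR called 0, with 1 higher and 0 lower at an unadjusted p under 0.05, DESeq2 called 0, and the median log2 fold change was 0.40. Of the 9, 8 had a log2 fold change above 0, against 48.8% of all genes tested. *Tbx20* had the largest (1.02, edgeR adjusted p = 0.515) at 3.39 CPM or less in each library, followed by *Dlx3* (0.65, edgeR adjusted p = 0.833). *Vegfa*, the most abundant, was at 0.19 (edgeR adjusted p = 0.688). Changes of the size of *Id1*, *Id3* or *Atoh8* were not seen in this list.

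Partners of the E proteins were read next. Of 32 tissue-restricted bHLH genes 13 passed the expression filter, and the whole list summed to 78.4, 71.5 and 70.9 CPM in AT2CTRL replicates 1, 2 and 3 and to 80.3, 90.9 and 104.0 CPM in AT2CAB replicates 1, 2 and 3. *Scx*, described above, was the most abundant per kb, at 18.6, 18.0 and 14.4 CPM per kb in AT2CTRL replicates 1, 2 and 3 and at 25.7, 35.8 and 39.9 in AT2CAB replicates 1, 2 and 3, the latter above *Tcf3* in each of those libraries. It was the member that DESeq2 called, whereas edgeR called 0, with 2 higher and 1 lower at an unadjusted p under 0.05. *Ascl2* had all AT2CAB values (from 0.39 to 0.46 CPM) below all AT2CTRL values (from 0.94 to 1.2 CPM), with a log2 fold change of -1.37 (edgeR adjusted p = 0.442). *Atoh1* was at -1.13 (edgeR adjusted p = 0.792) and at 1.17 CPM or less throughout. The median of the list was 0.22.

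The Hes, Hey and Bhlhe genes encode bHLH repressors that act mostly without E proteins. Of 12 listed genes 10 were tested, and edgeR called 0, with 1 higher and 1 lower at an unadjusted p under 0.05. Of the 10, 9 had a log2 fold change above 0, against 48.8% of all genes tested, with a median of 0.33. *Hes2* was at 23.7, 30.7 and 28.8 CPM in AT2CTRL replicates 1, 2 and 3 and at 13.6, 11.2 and 4.30 CPM in AT2CAB replicates 1, 2 and 3. It ran opposite to the Id genes, with no overlap and AT2CAB replicate 3 lowest. Its log2 fold change was -1.53 (SE 0.36, edgeR adjusted p = 0.217), and DESeq2 called it lower (-1.50, adjusted p = 0.00391), as did edgeR in the 4 libraries without Y-linked reads (-1.24, adjusted p = 0.017). Its adjusted p ran from 0.00391 to 0.238 over the alternatives run for it.

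In the same list, *Hes7* was at 1.19 (edgeR adjusted p = 0.6). *Hes1*, the most abundant per kb, was at 117.2, 56.8 and 52.9 CPM in AT2CTRL replicates 1, 2 and 3 and at 61.6, 68.5 and 156.2 CPM in AT2CAB replicates 1, 2 and 3. Its highest libraries were the pair with Y-linked reads, 1 in each group, and its log2 fold change was 0.34 (edgeR adjusted p = 0.824), and 0.28 in the other 4 libraries (edgeR adjusted p = 0.271). *Id2* and *Id4* were likewise highest in AT2CTRL replicate 1 among the controls and in AT2CAB replicate 3 within AT2CAB, whereas *Id1* and *Id3* were highest among the controls in AT2CTRL replicate 2.

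Of 7 genes reported as targets of E proteins or Id proteins, 6 were tested and edgeR called 0, with 1 higher and 0 lower at an unadjusted p under 0.05, and DESeq2 called 0. *Cdkn1c*, a cell cycle inhibitor gene, was at 10.2 to 11.4 CPM in the AT2CTRL libraries and at 14.1, 19.0 and 26.6 CPM in AT2CAB replicates 1, 2 and 3. Its AT2CAB values were all above the controls and in the order of the Id genes, with a log2 fold change of 0.88 (SE 0.22, edgeR adjusted p = 0.266). DESeq2 gave it 0.89 with an adjusted p of 0.0315, short of a call by its fold only, and over the alternatives run for it the adjusted p reached 0.348. *Cdkn2b* was at -0.29 (edgeR adjusted p = 0.635). *Cdh1*, the E-cadherin gene and the most abundant of the list, was at -0.015 (edgeR adjusted p = 0.977), positive with DESeq2's size factors (0.010), library size only (0.12) and halved counts (0.0035). The median of the list was -0.0018.

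**Figure D4:**
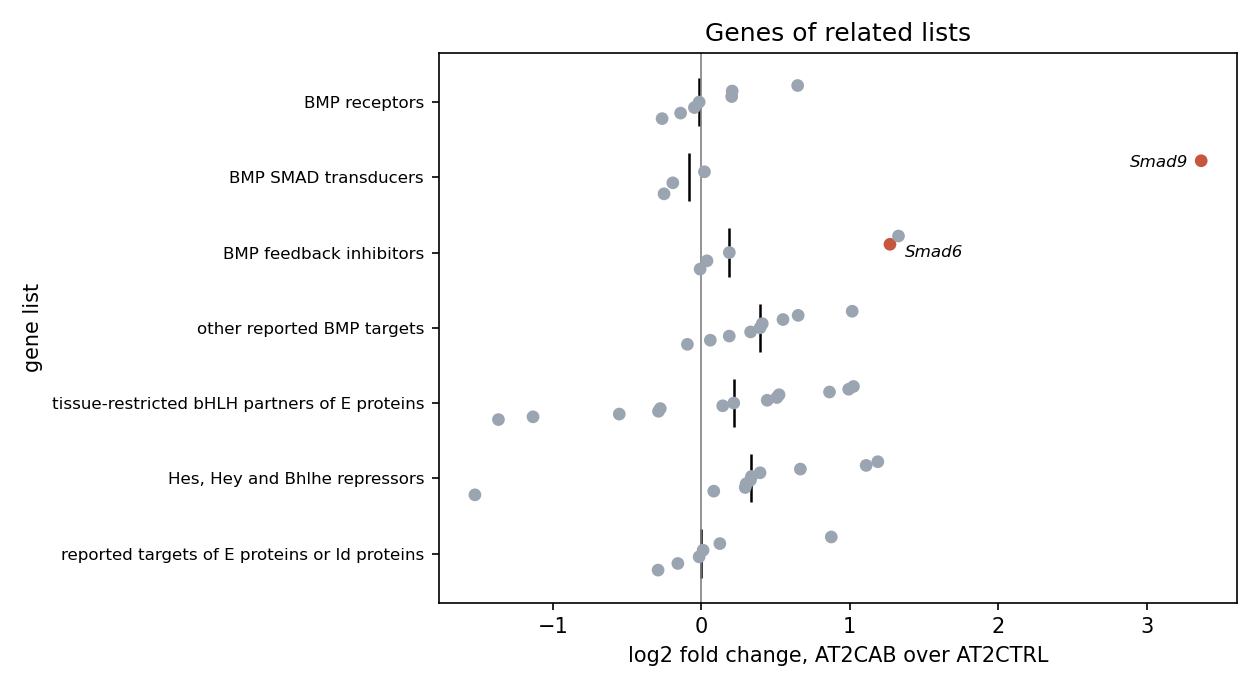
Log2 fold change of AT2CAB over AT2CTRL (edgeR) for the tested genes of each related list, with a black line at the list's median and red points for genes called. *Smad9* (3.37) and *Smad6* (1.27, a call lost with DESeq2's size factors) are the genes called, and the medians of the lists lie between -0.086 and 0.40.

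Id genes are also expressed in endothelial and mesenchymal cells, so markers of other cells were read beside them. The 12 endothelial markers summed to 263.5, 521.2 and 335.5 CPM in AT2CTRL replicates 1, 2 and 3 and to 456.5, 734.5 and 522.5 CPM in AT2CAB replicates 1, 2 and 3, with *Cldn5* the most abundant per kb, except in AT2CTRL replicate 1, where *Egfl7* was, and no marker at 0. The 12 mesenchymal markers summed to 193.6, 264.0 and 232.7 CPM and to 299.8, 400.5 and 376.9 CPM in the same libraries, with *Mfap4* the most abundant and no marker at 0. Both sums were highest in AT2CAB replicate 2, not in replicate 3 as for the Id genes, and the groups overlapped in the endothelial but not in the mesenchymal sums. All 12 of each list had a log2 fold change above 0, against 48.8% of all genes tested, with medians of 0.61 and 0.45, and edgeR and DESeq2 called 0 of them, with 7 and 4 higher and 0 lower at an unadjusted p under 0.05. In DESeq2 the collagen genes *Col1a1*, *Col1a2* and *Col3a1*, named after their values were seen, had adjusted p of 0.00521, 0.00805 and 0.0064, with log2 fold changes of 0.71, 0.66 and 0.78 that fell short of a call. In edgeR their adjusted p were 0.114, 0.127 and 0.132, and over the other edgeR fits run for them they ran from 0.0439, for *Col1a1* with library size only, to 0.202. The part of these markers in the levels of *Id1*, *Id3* and *Atoh8* was not tested. A change in the number of cells of a type and a change in RNA per cell cannot be told apart in bulk samples.

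The 12 immune markers summed to 2158, 1987 and 2701 CPM in AT2CTRL replicates 1, 2 and 3 and to 1386, 1232 and 314.7 CPM in AT2CAB replicates 1, 2 and 3, mostly from *Lyz1*. *Lyz1* had means of 2213 CPM in AT2CTRL and 879.2 in AT2CAB, against 11.4 and 19.0 for *Ptprc*. The full sum thus follows *Lyz1* and is no measure of immune cells. Reads that *Lyz1* shares with its paralog *Lyz2* may be missing or misassigned. Without *Lyz1* the sums were 65.8, 67.2 and 74.3 CPM and 143.2, 92.5 and 59.6 CPM. That order is the reverse of the Id genes, with AT2CAB replicate 1 highest and replicate 3 lowest. edgeR and DESeq2 called 0 of the 12, with 1 higher and 1 lower at an unadjusted p under 0.05, no marker was at 0, and the median log2 fold change was 0.72. The part of immune cells in the result was not tested.

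The 8 airway markers summed to 824.5, 916.3 and 723.3 CPM in AT2CTRL replicates 1, 2 and 3 and to 839.7, 1176 and 1220 CPM in AT2CAB replicates 1, 2 and 3, with *Scgb1a1* the most abundant and *Krt5* at 0 in all libraries. *Tppp3*, a ciliated cell marker named after its value was seen, was called higher (1.85, edgeR adjusted p = 0.0165, and 1.66 in the 4 libraries without Y-linked reads) and, like *Id1* and *Id3*, was lowest in AT2CAB replicate 1 and highest in replicate 3. The other 6 tested members were not called, and *Cyp2f2*, named after its values were seen, was lower at an unadjusted p under 0.05 in edgeR. Its adjusted p was 0.0158 in DESeq2 (log2 fold change -0.52, short of a call), 0.19 in edgeR and up to 0.391 over the alternatives run for it. The part of airway cells was not tested.

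The 4 mesothelial markers summed to 23.0, 23.1 and 10.6 CPM in AT2CTRL replicates 1, 2 and 3 and to 20.1, 24.4 and 54.9 CPM in AT2CAB replicates 1, 2 and 3, with *Upk3b* the most abundant per kb in each AT2CTRL library, *Msln* in each AT2CAB library, and no marker at 0. This sum was highest in AT2CAB replicate 3, the library in which the Id genes were highest, and AT2CAB replicates 1 and 2 lay at the level of the controls. All 4 had a log2 fold change above 0, against 48.8% of all genes tested, with a median of 0.73. edgeR and DESeq2 called 0 of the 4, with 1 higher and 0 lower at an unadjusted p under 0.05, and their part was not tested. Of 6 erythroid markers, *Hba-a1*, *Hba-a2*, *Hbb-bs* and *Hbb-bt* were listed at 0 in all libraries, and the list, led by *Alas2*, summed to 6.91, 0.86 and 0.46 CPM and to 2.29, 0.62 and 1.95 CPM.

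The 10 AT1 markers, which mark the cells that AT2 cells give rise to, summed to 3351, 3143 and 2522 CPM in AT2CTRL replicates 1, 2 and 3 and to 2903, 3302 and 2716 CPM in AT2CAB replicates 1, 2 and 3. The groups overlapped in this sum, of which *Ager*, the most abundant gene, was a large part. Without *Ager* the sums were 1356, 1654 and 1339 CPM and 1449, 1668 and 1197 CPM. No marker was at 0, the log2 fold change was above 0 for 8 of the 10, against 48.8% of all genes tested, and its median was 0.33. edgeR and DESeq2 called 0 of the 10, with 1 higher and 1 lower at an unadjusted p under 0.05. Their part in the levels of the Id genes was not tested.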

How the data were processed

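Counts per gene were deposited by the authors, without normalization, for 24421 genes on mm10. Per the submitters' notes and the study's methods, reads were trimmed with PRINSEQ and Trimmomatic, aligned with HISAT2, freed of duplicates with SAMtools and counted with featureCounts (version 1.5.3 in the table header). The methods speak of fragments, but the header holds no option for read pairs, so mates may be counted singly. Strand was not used, and a read lying on overlapping genes went uncounted. Groups and replicate numbers came from the labels.

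Genes were tested with edgeR's quasi-likelihood test (version 4.0.16, R 4.3.3) after TMM scaling and its default expression filter, with Benjamini-Hochberg adjustment over the 16723 genes tested. A gene was called when its adjusted p was below 0.05 and it differed by more than 2-fold. DESeq2 (1.42.0) and limma-voom (limma 3.58.1), scalings, filters, covariates, halved counts, sets of libraries and other call thresholds were alternatives. The fits were also run on simulated counts, with results that are not given here. To look for libraries deposited more than once, pairs within a group were compared, and none agreed within sampling noise (chi-square per degree of freedom from 12.9 to 71.4), which says nothing more about them.

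Named genes were the members, *Bmpr1a*, from each related list the genes called or otherwise the 2 with the largest change and the most abundant, and the 5 nearest profiles of *Id1*, *Id2*, *Id3* and *Atoh8*. Other genes were named after their values were seen or by position. Members and lists were chosen with earlier results of these data known. Gene positions are those of the deposited table, and exon overlaps come from GENCODE M21.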

Additional observations from a re-analysis of the deposited data

How the results depend on the processing

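*Atoh8* kept its direction and its call, and *Tcf4* its direction without a call, in all 18 alternatives. For *Atoh8*, chosen by this contrast, that describes the fits and is no test. DESeq2 called 119 genes higher and 25 lower, against 38 and 2, and gave *Id2* 1.04 and *Id4* 1.72, both then past the threshold. limma-voom called 25 higher and 1 lower. Upper-quartile scaling and library size only called 1 lower each, with *Tcf3* at 0.043 and 0.100 and *Tcf12* at 0.051 and 0.11, reversed in sign, as was *Tcf12* at 0.0025 with a filter of 1 CPM in 3 libraries. Testing all genes with a count called 5 lower, and age as a factor 1 lower. The 4 libraries without Y-linked reads gave 8 lower, *Id2* 0.94 (adjusted p under 0.05, without the 2-fold change of a call) and *Tcf3* 0.050 (reversed). With Y-linked reads as a factor 108 were higher, 34 lower and *Id2* passed at 1.01. An adjusted p under 0.01 left 8 higher and 0 lower. For related genes, DESeq2's size factors and library size only turned *Bmpr1a* to 0.010 and 0.11 and *Cdh1* to 0.010 and 0.12, halved counts turned them to 0.0019 and 0.0035, and the 4 libraries without Y-linked reads turned *Bmpr1a* to 0.061. Without the division by length the Id to E-protein ratio was 1.02 in AT2CTRL and 4.77 in AT2CAB. The cause was not tested for any of these changes.

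Leaving out each library in turn gave from 6 to 59 genes called higher and from 0 to 4 lower. The log2 fold change ran from 2.99 to 3.93 for *Id1*, from 0.83 to 1.21 for *Id2*, from 4.02 to 4.89 for *Id3*, from 0.90 to 2.10 for *Id4*, from 3.87 to 4.37 for *Atoh8*, from -0.11 to 0.13 for *Tcf3*, from 0.21 to 0.34 for *Tcf4* and from -0.18 to 0.12 for *Tcf12*. The ratio ran from 3.36 to 4.39 in AT2CTRL and from 13.7 to 26.5 in AT2CAB.

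A fit that took the replicate number as a block called 5 genes lower, *Id1*, *Id3* and *Atoh8* had log2 fold changes of 3.41, 4.42 and 4.05, and no member's call changed. Same-numbered libraries deviated from their group means with correlations across genes of -0.24, 0.20 and -0.53. AT2CTRL replicate 1 and AT2CAB replicate 3, the libraries with Y-linked reads, had 0.613. With 3 libraries per group the deviations depend on each other, so they cannot decide whether the numbers pair the samples.

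The AT2CAB values spread over more than 3-fold for *Id1*, *Id3* and *Id4*. The bHLH genes that did not pass the expression filter were not tested, and *Id4* rested on 49 to 81 counts in 4 of the libraries.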
